A study of Mus musculus with 8 samples.

Results

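The *Ikzf1* interval is the 360 kb of mouse chromosome 11 from 11.46 Mb to 11.82 Mb (GRCm38) that holds *Ikzf1* and the DNase I hypersensitive sites (DHSs) upstream of it and within it. Its H3K27ac peaks were taken by position alone, as every peak of the wt and ΔIkE120 lists that touches the interval. They numbered 58 of the 64455 peaks of both lists, 30 of 34553 in wt and 28 of 29902 in ΔIkE120. The study used CRISPR/Cas9 to remove IkE120, an enhancer far upstream of *Ikzf1*, from P5424 cells, a mouse cell line that resembles T cell precursors. ΔIkE120 is 1 clone obtained by limiting dilution with the deletion on both alleles, so the deletion and other differences between that clone and wt P5424 cells cannot be told apart. H3K27ac ChIP-seq gave 1 library of each genotype, from the same line in the same medium, and the sources used here do not state whether these cells had been stimulated. With 1 library of each there was no spread between replicates, and every difference given here is a description of this pair of libraries.

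*Ikzf1* encodes Ikaros, a zinc finger protein that binds DNA and is needed for the development of lymphocytes. Enhancers are stretches of DNA that raise transcription from a promoter that can lie far away, and in the nuclei of cells that use them they are often open to DNase I and flanked by nucleosomes whose histone H3 is acetylated at lysine 27 (H3K27ac). A DHS therefore marks the open core of an element, while the H3K27ac signal lies on the nucleosomes to its sides. The 16 DHSs of the interval come from the study's list for primary DP thymocytes, and 7 of them carry 1 of the 6 enhancer names of the study (IkE180, IkE155, IkE120, IkE25, IkE+5 and IkE+15), since IkE+5 holds a pair of DHSs. Their positions are those of mm9 and were placed on GRCm38 by adding 100000 bases. All 21 RefSeq promoter sequences searched around the interval were found once on mm9 chromosome 11, each at a shift of 99997 bases, so a placed DHS lies 3 bases to the right of its exact position. Below, DHSs without a name are called by their first base in mm9, and peaks are given on GRCm38.

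Cell identity was checked on the starts of marker genes. All 11 markers of T cell precursors, among them *Cd3e*, *Ptcra*, *Rag1* and *Bcl11b*, had a peak within 1 kb of an annotated start in both lists. Among markers of other cells that have a start in the RefSeq promoter table, *Ebf1* (1 of 3 B cell markers) and *Pou5f1* (1 of 4 ES cell markers) had a peak in both lists. None of 3 myeloid and 3 fibroblast markers had a peak in either list.

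Over the whole interval, peaks covered 24981 bases in wt and 20821 bases in ΔIkE120, which gives a ratio of 0.833. The lists themselves differed in the same direction, with 25189952 covered bases on all chromosomes in wt and 22143580 in ΔIkE120, which gives a ratio of 0.879. On chromosome 11 alone the ratio was 0.882. By all covered bases the interval as a whole was therefore close to the difference between the lists. Peaks that share at least 1 base were then merged over both lists into 37612 regions, of which 34 touch the interval. In 11 of these 34 the covered bases were at least 1.5-fold fewer in ΔIkE120 or no ΔIkE120 peak was present, a share of 32.4%, beside 31.9% of all merged regions. In 5 of 34 they were at least 1.5-fold more or no wt peak was present, a share of 14.7% beside 14.6% of all merged regions. Counted over the interval, these shares were close to those of the genome. By direction alone, 16 of the 23 regions of the interval with a peak in both lists had fewer covered bases in ΔIkE120, beside 58.3% of all 24726 such regions. Summed over the regions with a peak in both lists, the ratio was 0.843 in the interval and 0.947 on all chromosomes. Their median ratios were 0.909 and 0.961, so by these regions the interval lay further below the lists. Along the interval, from IkE180 to the *Ikzf1* promoter, 8 of 18 regions had fewer covered bases in ΔIkE120 by this limit and 0 had more. Within *Ikzf1*, 1 of 10 regions had fewer and 3 had more. Further upstream, to the left of IkE180, 1 of 4 had fewer and 2 had more, and to the right of *Ikzf1* 1 of 2 had fewer. Regions with more covered bases thus lay both upstream of the gene and within it.

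**Figure D1:**
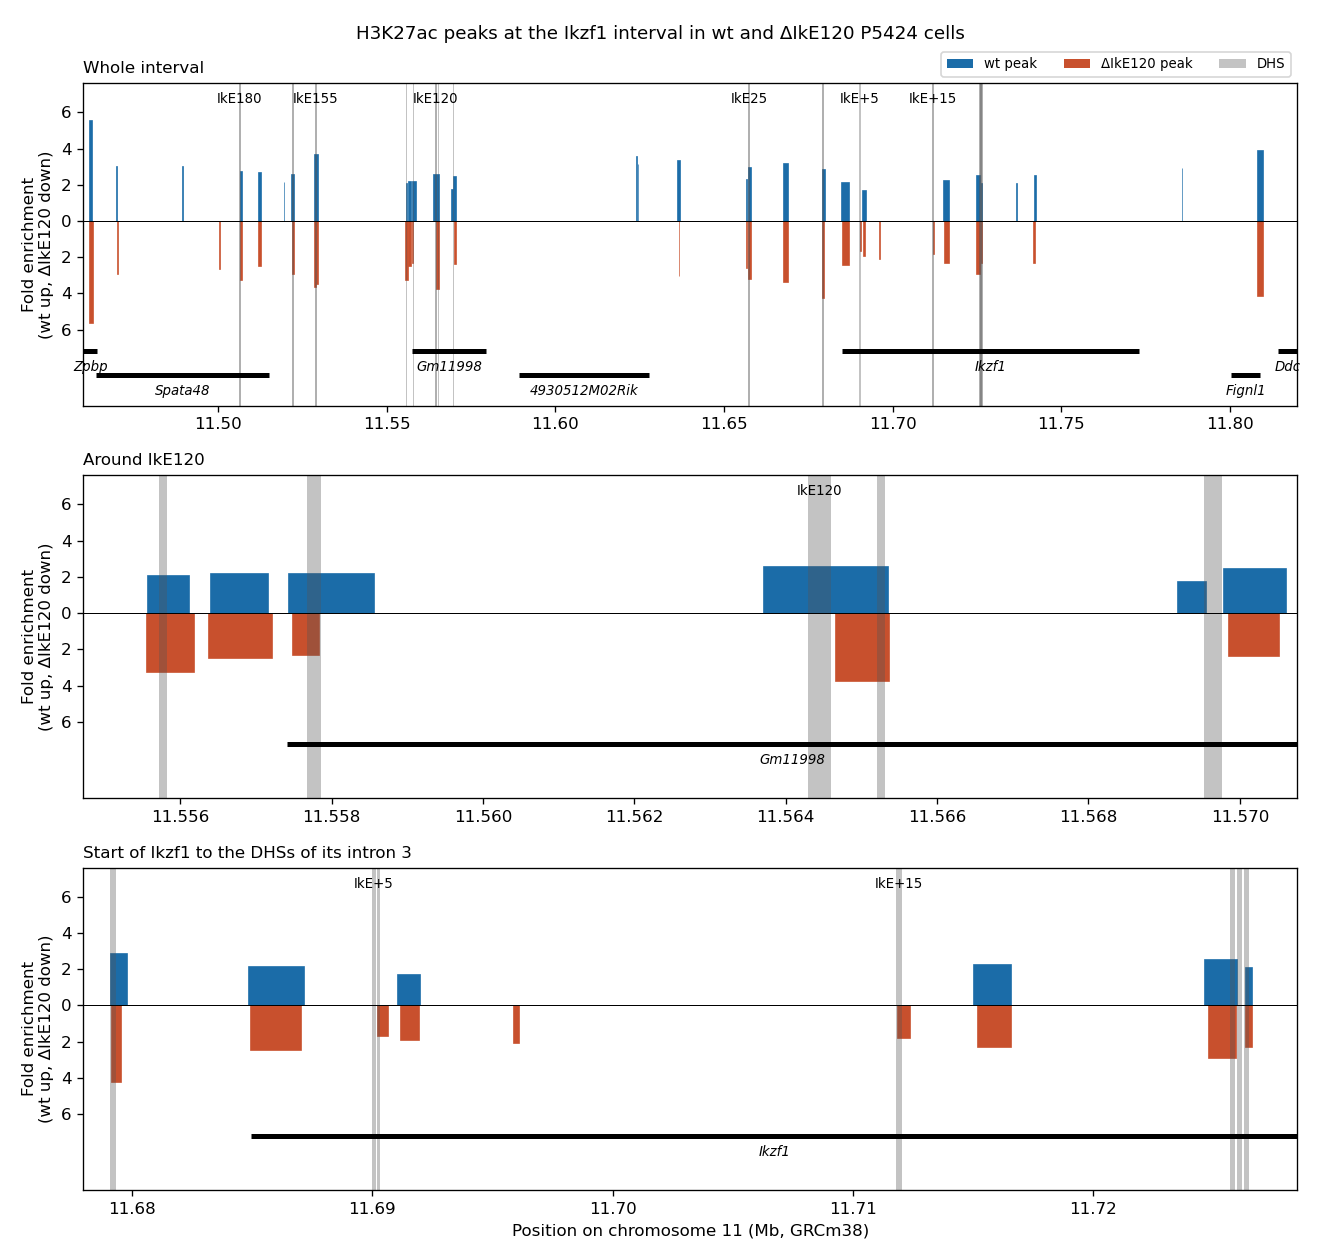
H3K27ac peaks of wt (up, blue) and ΔIkE120 (down, red) cells along chromosome 11 (Mb, GRCm38), with bar height as the fold enrichment of the peak, grey bands for the 16 DHSs and black lines for genes. The upper panel shows the whole interval with its 30 wt and 28 ΔIkE120 peaks, the middle panel the DHSs around IkE120, where the ΔIkE120 peak starts to the right of the IkE120 DHS, and the lower panel the start of *Ikzf1* with the peaks at IkE+5 and IkE+15 that are in the ΔIkE120 list alone.

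IkE120 is the deleted element. Its DHS (chr11:11464295-11464600 of mm9) is 306 bases long, lies 121 kb upstream of the *Ikzf1* start and sits inside the non-coding gene *Gm11998*. In wt a peak of 1644 bases (chr11:11563705-11565348) covered all 306 bases of it. The ΔIkE120 list had no peak on it, and the nearest peak (chr11:11564652-11565363, 712 bases) began 51 bases to its right. The sides of the element differed. Within 1 kb to the left of the DHS, peaks covered 590 bases in wt and 0 in ΔIkE120, while within 1 kb to the right they covered 748 bases in wt and 712 in ΔIkE120. The right edge of the peak moved by 15 bases and the left edge by 947. So the loss in peak length took in the DHS and the whole left flank, and most of the right flank was kept. Over the DHS and 1 kb to either side the ratio of covered bases was 0.433, and it was 0.532 with the bases of the DHS left out in both lists. Of the 24726 merged regions with a peak in both lists, 2.75% had a ratio as low as that of the merged IkE120 region, and 6.05% one as low as 0.532. Reads of ΔIkE120 cells cannot map to deleted bases, and the cut sites of the guides, described below, enclose 285 of the 306 bases of the DHS. On those bases the absence of a peak is no measurement of H3K27ac. The cause of the loss on the flank was not tested. The peak that remained had a higher fold enrichment (the signal over the background as the authors' peak caller gave it), 3.74 against 2.58 in wt, and a −log10 q of 12.0 against 9.83. These values belong to whole peaks, of 712 bases in ΔIkE120 and 1644 in wt. They are not of the same bases and show no gain on the right flank.

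The bases between the cut sites of both guides, taken as 3 bases from each PAM, span chr11:11464309-11464593 (mm9, plus strand, 285 bases), and are shown because the deletion was aimed at them and the wt peak covered all of them. The cut sites were worked out from the guide sequences, and the junctions in the clone were not analysed here. Capitals mark short motifs of lymphoid factors, searched for on both strands. The motif of RUNX1 was taken as TGTGGT and that of Ikaros itself as TGGGAA. For the E protein HEB it was CAGCTG, and for GATA3 it was AGATAA. TCF1 was searched as CTTTGA. ETS1 was searched as AGGAAG. The motif taken for the boundary protein CTCF was AGGNGGC. Such a match is a description of the sequence and shows no binding.
IkE120, between the cut sites: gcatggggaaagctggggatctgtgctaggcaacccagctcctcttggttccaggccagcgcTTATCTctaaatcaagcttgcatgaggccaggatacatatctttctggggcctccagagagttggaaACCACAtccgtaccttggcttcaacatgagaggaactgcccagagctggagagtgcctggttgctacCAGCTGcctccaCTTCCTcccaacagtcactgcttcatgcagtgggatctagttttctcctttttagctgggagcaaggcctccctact
From left to right it holds the motifs of GATA3, RUNX1, HEB and ETS1 once each, and none of those of the other 3 factors. Only the letters given above were searched, so a missing match does not show a missing site. From ChIP-seq in primary DP thymocytes, the study reported binding at IkE120 of every lymphoid factor it tested, Ikaros among them. Of all windows of 285 bases of chromosome 11, 16.6% hold the GATA3 motif, 20.5% that of RUNX1, 11.8% that of HEB and 30.1% that of ETS1. No DHS of the list held the motifs of more factors, and IkE+15 also held those of 4. IkE120 and IkE+15 are also the longest DHSs of the list, with 306 and 242 bases. Longer windows of chromosome 11 hold each motif more often.

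IkE120 belongs to an upstream cluster of 8 DHSs, from 179 kb to 115 kb before the *Ikzf1* start. From the first to the last of them, peaks covered 8155 bases in wt and 5692 in ΔIkE120, which gives a ratio of 0.698, or 0.725 with the bases of the IkE120 DHS left out of both lists. Besides IkE120, peaks overlapped all 7 of these DHSs in wt and 5 of 7 in ΔIkE120, and of their 1159 bases they covered 70.5% in wt and 52.8% in ΔIkE120. Of its 8 merged regions with a peak in both lists, 4 had fewer covered bases in ΔIkE120 and 4 had more. The cluster did not differ evenly along its length. Between 1 kb before IkE180 and 1 kb after IkE155 the ratio was 0.861, close to that of the lists. From 1 kb before the DHS 11455715 to 1 kb after the DHS 11469533, the 16 kb that hold IkE120, it was 0.601, with 5332 covered bases in wt and 3205 in ΔIkE120, and 0.638 without the IkE120 DHS.

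Among the neighbours of IkE120, the DHS 11457668, near the start of *Gm11998*, lay in a wt peak of 1144 bases (chr11:11557417-11558560) and in a ΔIkE120 peak of 354 bases (chr11:11557480-11557833). Here the right flank was missing, as peaks within 1 kb to the right covered 709 bases in wt and 0 in ΔIkE120. This ratio, 0.309, was reached by 0.663% of the merged regions with a peak in both lists. The DHS 11465199, which shares the IkE120 peaks, was covered over all of its 110 bases in both lists. The DHS 11469533 lay between a pair of wt peaks (chr11:11569164-11569548 and chr11:11569773-11570608) that left most of it free, with 16 of its 229 bases covered. In ΔIkE120 the peak to its left was absent and that to its right (chr11:11569849-11570511) began 87 bases from the DHS. At this DHS, at the DHS 11457668 and at IkE120, the flank on 1 side was thus free of ΔIkE120 peaks within 1 kb. The DHS 11455715 did not share this. It was fully covered in both lists, its peak had 560 bases in wt and 638 in ΔIkE120, and the fold enrichment was 2.08 and 3.26.

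The other end of the cluster holds IkE180, in the gene *Spata48*, and IkE155. At IkE180 the wt peak (chr11:11506399-11506933) covered 55 of 184 bases and the ΔIkE120 peak (chr11:11506491-11507053) began 37 bases to the right of the DHS. The peaks were of like length, 535 and 563 bases, with fold enrichments of 2.75 and 3.26. Both edges lay further right in ΔIkE120, the left by 92 bases and the right by 120, so at IkE180 the peak was shifted and not lost. IkE155 was covered in full by 1 wt peak (chr11:11528404-11529558). In ΔIkE120 that peak was split into chr11:11528381-11528901 and chr11:11529092-11529495, with the gap over most of IkE155, so that 38 of its 154 bases (24.7%) were covered. Fold enrichment was 3.71 for the wt peak and 3.65 and 3.49 for the ΔIkE120 peaks. Peaks covered bases on both sides of the DHS in both lists, and the lists differed in whether a peak also covered its middle. The shape of the signal under the peaks was not read. The DHS 11421901 was covered in full in both, within peaks of 935 bases in wt and 743 in ΔIkE120.

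Between the cluster and the *Ikzf1* promoter lie IkE25, 27.7 kb upstream of the gene start, and the DHS 11579095, 5.80 kb upstream. Over this stretch of 115200 bases peaks covered 6011 bases in wt and 4035 in ΔIkE120, which gives a ratio of 0.671, and all 6 merged regions with a peak in both lists had fewer covered bases in ΔIkE120, against the 58.3% of such regions on all chromosomes. IkE25 was covered in full in both lists, by peaks of 1067 bases in wt (chr11:11657047-11658113) and 882 in ΔIkE120 (chr11:11657061-11657942). The DHS 11579095 lay in a wt peak of 714 bases and a ΔIkE120 peak of 432 bases. The fold enrichment of these whole peaks was 2.88 in wt and 4.24 in ΔIkE120. A site with no DHS in the list showed the lowest ratio among the regions of the interval with a peak in both lists. At chr11:11636086-11636922 the wt peak had 837 bases and the ΔIkE120 peak 211, a ratio of 0.252 that 0.186% of such regions reached. That share is for a single region, while this site was picked as the lowest of 23. Its ΔIkE120 peak was weak, with a −log10 q of 2.28, higher than 20.0% of the peaks of its list. A pair of wt peaks at chr11:11623883-11624179 and chr11:11624387-11624601, within *4930512M02Rik*, had no counterpart in ΔIkE120. The longest stretch free of peaks in the interval began after the cluster in both lists and reached over 53.3 kb in wt and 66.0 kb in ΔIkE120.

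The main promoter of *Ikzf1* carried the longest peak of the interval in both lists, chr11:11684818-11687149 (2332 bases) in wt and chr11:11684903-11687027 (2125 bases) in ΔIkE120. Within 1 kb of the RefSeq start at 11685925, all 2001 bases were covered in both. Fold enrichment was 2.18 in wt and 2.45 in ΔIkE120, and −log10 q was 10.6 and 11.6. The promoter therefore kept its peak. *Gm11999* starts under the same peak on the other strand, with 1818 covered bases within 1 kb of its start in wt and 1733 in ΔIkE120. At the starts of the genes at the ends of the interval the covered bases were also similar. Peaks within 1 kb of the start of *Zpbp*, which encodes a protein of sperm, covered 1089 bases in wt and 1161 in ΔIkE120, and those at *Fignl1* covered 1820 and 1766. The starts in the upstream cluster were less alike. Peaks covered 1739 bases in wt and 1149 in ΔIkE120 at *Gm11998*, and 1371 and 631 (ratio 0.460) at *Gm29945*, and these windows overlap. Of the 3 starts of *Spata48*, that at 11489266 had 247 bases in wt and 0 in ΔIkE120, that at 11463744 had 0 and 53, and that at 11484560 had 0 in both. No peak lay within 1 kb of the start of *4930512M02Rik* in either list. *Ddc* reaches into the interval with its end alone, and its annotated starts lie outside.

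Within *Ikzf1* the summed covered bases were not fewer in ΔIkE120. Peaks covered 7219 bases of the gene in wt and 7616 in ΔIkE120 (ratio 1.05), while its share of all covered bases of the interval was 28.9% in wt and 36.6% in ΔIkE120. The regions that both lists share did not show this. Of the 6 merged regions from the promoter to the gene end with a peak in both lists, 5 had fewer covered bases in ΔIkE120 and 1 had more, with a median ratio of 0.910, beside 58.3% with fewer and a median of 0.961 over all such regions of the genome. They summed to 6946 bases in wt and 6408 in ΔIkE120. The higher sum over the gene thus rests on 3 regions with a ΔIkE120 peak alone, against 1 with a wt peak alone. Introns were taken from the GENCODE transcript with the most exons, which has 9 exons and 8 introns. Peaks covered 5709 of 81491 intronic bases in wt (7.01%) and 6106 (7.49%) in ΔIkE120. The ratio of both was 1.07. This ratio was 0.871 when each list was limited to its upper part, from its own median −log10 q, so its direction rests on peaks of low −log10 q.

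The covered bases lay in 3 of the 8 introns, the same in both lists. Intron 1 (13736 bases) touched 2 peaks with 1597 covered bases in wt, and 4 peaks with 2049 covered bases in ΔIkE120. Of these bases, 678 in wt and 556 in ΔIkE120 belonged to the promoter peak. Among the other ΔIkE120 peaks of this intron, those at IkE+5 and at chr11:11695859-11696096 had no wt counterpart. The peak between them, chr11:11691158-11691930, pairs with the wt peak chr11:11691041-11691959. Intron 3, the longest at 33045 bases, touched 4 peaks in each list, which covered 3694 bases in wt and 3457 in ΔIkE120. Intron 4 (7301 bases) touched 1 peak in each, of 418 bases in wt and 600 in ΔIkE120. Introns 2, 5, 6, 7 and 8 had 0 peaks and 0 covered bases in both lists. H3K27ac thus marked the first part of the gene body in both genotypes, and the peak count differed in intron 1.

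IkE+5 lies in intron 1, near 5 kb behind the gene start. Of its pair of DHSs, that at chr11:11589984-11590137 (mm9) was free of peaks in both lists. The other, at chr11:11590190-11590299 (mm9), had 0 of 110 bases covered in wt and all 110 in ΔIkE120, by a peak (chr11:11690169-11690650, 482 bases) that is in the ΔIkE120 list alone. RefSeq places a further start of *Ikzf1* at 11690177, inside that peak, and the nearest wt peak lies 863 bases from this start. The ΔIkE120 peak was weak, with a fold enrichment of 1.68 and a −log10 q of 2.48, higher than 23.8% of the peaks of its list. IkE+15 lies in intron 3, 26.9 kb behind the gene start as annotated here. Its 242 bases were free in wt, with the nearest peak 2965 bases away, and 205 of them were covered in ΔIkE120 by a peak of 547 bases (chr11:11711830-11712376) with a fold enrichment of 1.82 and a −log10 q of 1.66. Both named elements within the gene thus had a peak in ΔIkE120 alone, and both peaks ranked low in their list. The 3 DHSs from 11625705 to 11626493, also in intron 3, lie in or beside peaks that both lists share. Peaks covered 202 of 202 bases of the DHS 11625705 in both. They covered 12 of 184 bases of the DHS 11625985 in wt and 0 in ΔIkE120, and 191 of 238 bases of the DHS 11626256 in wt and 165 in ΔIkE120.

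As examples of other named elements that a peak overlapped in only 1 list, IkE180 (wt alone) at chr11:11406270-11406453 and IkE+15 (ΔIkE120 alone) at chr11:11611793-11612034 are shown in the same way (mm9, plus strand).
IkE180: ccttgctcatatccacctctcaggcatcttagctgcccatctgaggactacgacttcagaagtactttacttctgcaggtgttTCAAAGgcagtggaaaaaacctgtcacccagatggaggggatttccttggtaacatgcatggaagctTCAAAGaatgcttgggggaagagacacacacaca
IkE+15: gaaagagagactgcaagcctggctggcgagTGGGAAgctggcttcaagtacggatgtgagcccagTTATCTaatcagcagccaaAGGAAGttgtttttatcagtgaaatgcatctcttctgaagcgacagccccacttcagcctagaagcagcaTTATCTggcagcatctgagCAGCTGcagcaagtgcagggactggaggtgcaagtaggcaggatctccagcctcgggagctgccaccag
IkE180 holds the TCF1 motif at 2 positions, as 13.5% of chromosome 11 windows of 184 bases do at least once, and none of the other motifs. IkE+15 holds the GATA3 motif at 2 positions and those of Ikaros, ETS1 and HEB once each. Of windows of 242 bases 14.2% hold the GATA3 motif, 21.2% that of Ikaros, 26.3% that of ETS1 and 10.2% that of HEB. Over all 16 DHSs, the ETS1 motif was in 11, that of RUNX1 in 5, that of HEB in 4, those of Ikaros and TCF1 in 3 each, that of GATA3 in 2 and that of CTCF in 1, the DHS 11469533. Among chromosome 11 windows of the lengths of these DHSs the ETS1 motif was in 12.9% to 32.0%, the RUNX1 motif in 8.29% to 21.8% and the HEB motif in 4.70% to 12.7%. These ranges were 10.0% to 26.1% for Ikaros, 8.22% to 21.6% for TCF1, 6.63% to 17.7% for GATA3 and 5.15% to 13.8% for CTCF. The shares of the DHSs with the ETS1 (11 of 16), RUNX1 (5 of 16) and HEB (4 of 16) motifs were above those of windows of every one of these lengths, and those of the other 4 motifs were not. No test was made of this.

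Taking all DHSs, peaks overlapped 13 of 16 in wt and 11 of 16 in ΔIkE120. Of these, 9 were overlapped in both, 4 in wt alone (IkE180, IkE120 and the DHSs 11469533 and 11625985), 2 in ΔIkE120 alone (IkE+15 and the second DHS of IkE+5) and 1 in neither. IkE120 is in this count as the deleted element. Without it the counts were 12 and 11 of 15, and peaks covered 60.6% of the bases of these 15 DHSs in wt and 62.4% in ΔIkE120. At the other 3 DHSs overlapped in wt alone the nearest ΔIkE120 peak lay 31, 37 and 87 bases away. From the IkE120 DHS that distance was 51 bases. Counting DHSs by overlap was therefore sensitive to small shifts of peak edges. With at least 50% of the DHS covered the counts were 10 and 10, and with a peak within 1 kb they were 15 and 16. In the windows of 1 kb to either side, covered bases were at least 1.5-fold fewer in ΔIkE120 at 5 of 16 DHSs (the DHSs 11457668, 11465199, 11469533 and 11579095, and IkE120) and at least 1.5-fold more at 3, in IkE+5 and IkE+15. Of all merged regions, which are not windows of this kind, 31.9% and 14.6% passed the same limit, so these counts do not set the DHSs apart. Neighbouring windows overlap and are not separate sites. The window of the DHS 11465199 takes in the IkE120 DHS, and without those bases its ratio was 0.844 in place of 0.619. The median ratio over the 15 windows with wt peaks was 0.817.

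Peaks without any overlap in the other list numbered 7 of 30 in wt and 4 of 28 in ΔIkE120. As merged regions, 7 of 34 held a wt peak alone and 4 of 34 a ΔIkE120 peak alone, beside 23.5% and 10.8% of all merged regions. By −log10 q they were weak peaks. Their −log10 q ran from 1.47 to 3.39 in wt and from 1.66 to 3.00 in ΔIkE120, where the medians of the lists were 4.12 and 4.47. The longest had 417 bases in wt and 547 in ΔIkE120. Of the 4 in ΔIkE120, 3 lay in *Ikzf1* (at IkE+5, at IkE+15 and at chr11:11695859-11696096 in intron 1) and the other in *Spata48*. Of the 7 in wt, 1 lay in *Ikzf1* (chr11:11736517-11736933, intron 3), and 2 in the upstream cluster (chr11:11519404-11519646 and chr11:11569164-11569548).

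Fold enrichment could be set side by side for the 22 peaks of the interval that pair with exactly 1 peak of the other list. It was higher in ΔIkE120 in 17 of 22, with a median ratio of 1.08, beside 59.6% and a median ratio of 1.03 over 22698 pairs on all chromosomes. The ratio was at least 1.4 in 3 of the 22, beside 0.727% of all pairs, and at most its inverse in 0 of 22, beside 0.388%. That limit was chosen after the values were seen. The 3 peaks were those at the DHS 11455715 (1.56), at the DHS 11579095 (1.47) and to the right of IkE120 (1.45), each on or next to a DHS of the list. At the latter 2 the ΔIkE120 peak was also the shorter, and at the DHS 11455715 it was the longer. Of all peaks of the interval, 11 of 30 in wt and 11 of 28 in ΔIkE120 overlapped a DHS, so 3 peaks do not tie the higher ratio to DHSs. Each value belongs to a whole peak, so the values of a pair need not cover the same bases. Since fold enrichment is also relative to each library's own background and the depths are not known, the level of H3K27ac was not compared. By −log10 q, 10 of the 22 were higher in ΔIkE120, 45.5% beside 46.2% of all pairs.

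Among 21644 protein-coding genes, 167 had more covered bases than *Ikzf1* in wt (0.772%) and 100 in ΔIkE120 (0.462%). By this count, which does not allow for gene length, *Ikzf1* was among the highest genes of both lists. Peaks covered 8.21% of the bases of *Ikzf1* in wt and 8.66% in ΔIkE120. The genes of at least 10 kb most like it over these 2 libraries, by the summed log2 differences in covered bases, were *Ctnnd2* with 7179 bases in wt and 7563 in ΔIkE120, *Aff1* with 7120 and 7644, and *Hivep2* with 7273 and 7425. Their ratios, 1.05, 1.07 and 1.02, are near that of *Ikzf1* because they were chosen by it. Over the 8716 genes of at least 10 kb with peaks in both lists the median ratio was 0.959, and 40.5% had more covered bases in ΔIkE120.

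A further readout of the same DHSs, 4C-seq from the *Ikzf1* promoter, was available for unstimulated wt and ΔIkE120 cells, 1 library each. It counts reads on restriction fragments joined to the promoter fragment. Of 1742231 wt and 3342473 ΔIkE120 reads over 15 kb from the bait, 4.95% in wt (95% Wilson interval 4.92% to 4.98%) and 4.90% in ΔIkE120 (4.88% to 4.93%) fell within 5 kb of the centre of IkE120. The 9 windows used upstream of *Ikzf1* differed in both directions, with a higher share in ΔIkE120 at 3 and a lower share at 6, and several of them overlap. The highest ratio of shares, 1.32, was at IkE180, with 1.16% (1.14% to 1.17%) in wt and 1.53% (1.52% to 1.55%) in ΔIkE120. The lowest, 0.768, was at the DHS 11421901, with 2.65% (2.63% to 2.68%) and 2.04% (2.02% to 2.05%). At the DHS 11469533 the shares were 3.69% (3.67% to 3.72%) and 4.61% (4.58% to 4.63%), and at IkE25 3.15% (3.13% to 3.18%) and 2.58% (2.57% to 2.60%). At IkE+15 they were 1.16% (1.15% to 1.18%) and 1.43% (1.41% to 1.44%). These intervals cover counting error only, and PCR copies of a fragment are not independent. The share of reads around IkE120 was thus nearly that of wt although its H3K27ac peak was shorter. This window takes in the deleted bases, which cannot give reads in ΔIkE120 cells. In the 4 windows used inside *Ikzf1*, at IkE+15 and the 3 DHSs beyond it, which overlap, the ratio of shares was 1.23 to 1.43. Whether the 4C shares and the H3K27ac peaks moved together was not tested.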

How the data were processed

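The authors deposited a list of broad H3K27ac peaks for each of the 2 ChIP-seq libraries on GRCm38, with a score, a fold enrichment and the −log10 p and −log10 q of each peak, and without depths. The submitters' processing notes name Bowtie2 2.3.4.3, MACS2 2.1.1 and deepTools 3.2.1. For 4C-seq the authors deposited read counts per fragment of chromosome 11 on mm9, used without conversion for the 2 unstimulated P5424 libraries. The other 4 of 8 samples were not used.

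Genotypes were taken from the sample titles. Peaks touching the interval were set against the 16 DHSs and the introns, both placed from mm9 by adding 100000. Covered bases are bases under a peak, and overlap means at least 1 shared base. Ranks by −log10 q were taken within a list. No test was made, since each genotype has 1 library. Named were all DHSs, introns, interval genes and the 3 genes most like *Ikzf1*. Single peaks away from the DHSs were named as examples. Members and lists were chosen with earlier results of these data known. Genes came from RefSeq (GRCm38.p6) and GENCODE M1 (mm9). Gene starts were those of the RefSeq promoter table. Alternatives changed the placement, the peak threshold, the overlap rule, the window and the introns. The overlap code was tested on simulated lists with 0 differences from an exhaustive search. Python 3.11.15, numpy 2.4.6, pandas 2.3.3, statsmodels and matplotlib were used.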

Additional observations from a re-analysis of the deposited data

How the results depend on the processing

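Of 48 alternative values, 41 stayed within 1.5 times the value reported. Without replicates this limit stood in for an error. With each list limited to peaks that reached its own median −log10 q, the interval held 15 wt and 13 ΔIkE120 peaks, 8 DHSs were overlapped in wt and 6 in ΔIkE120, and 2 ΔIkE120 peaks had no overlap in the wt list. When at least 50% of a peak had to be shared, 11 wt peaks had no counterpart. The causes were not tested, beyond the fewer peaks of the stricter lists. For the IkE120 DHS alone the ratio of covered bases was 0, and ΔIkE120 cells lack most of this DNA. With its bases left out, an alternative added after the data were seen, the ratio was 0.844 for the whole interval and 0.725 for the upstream cluster, and 12 DHSs were overlapped in wt and 11 in ΔIkE120. The ratio stayed below 1 under every alternative run for the whole interval (0.712 to 0.856), for the upstream cluster (0.516 to 0.725) and for IkE120 (0 to 0.532). For the introns it ran from 0.871 to 1.15 and so changed direction. Placing the DHSs 100 bases further left gave 12 overlapped DHSs in each list, and 100 bases further right 12 in wt and 15 in ΔIkE120. The latter count takes in the deleted IkE120, with 49 of its placed bases under the peak to its right. The shift of the promoter sequences, added after the data were seen, gave 13 and 11 as reported. No paired analysis was possible because each genotype has 1 library. The depths behind the lists are not known, so a peak missing from a list may lie under its threshold.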

Other observations

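The interval's peaks were of low fold enrichment for their lists. In wt 22 of 30 and in ΔIkE120 18 of 28 lay below the median fold enrichment of their own list, while 17 of 30 and 14 of 28 were longer than the median peak. The *Ikzf1* promoter peak combined both. Its fold enrichment was higher than 7.10% of the wt peaks and 13.5% of the ΔIkE120 peaks, and its length was above 99.7% and 99.3% of them. The peaks at the ends of the interval stood apart from this. The *Zpbp* start had the highest fold enrichment of the interval in both lists, 5.57 in wt and 5.61 in ΔIkE120, and the *Fignl1* start followed with 3.92 in wt. In ΔIkE120 the *Fignl1* start had 4.12, below the 4.24 of the peak at the DHS 11579095.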
